A study of Mus musculus with 6 samples.

Results

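The 36 integrin and laminin chain genes of the mouse were compared in the incisor between mice with a Gli1-CreER deletion of Arid1a and control mice. They were taken from the deposited gene count table by symbol, as Itga or Itgb followed by a chain number or letter, and Lama, Lamb or Lamc followed by a chain number. The rule found 36 of 25703 genes: 25 integrin and 11 laminin chains. All 36 had enough counts to be tested. Itgad and Itgb2l were not analysed here.

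RNA was taken from the proximal incisor, where the stem cells of this ever-growing tooth lie, of C57BL/6 mice aged 6 weeks. Control libraries (n = 3) came from Arid1a fl/fl mice, which carry the floxed Arid1a gene and for which no Cre is listed, and cKO libraries (n = 3) from Gli1-CreER;Arid1a fl/fl mice. The protocol lists intraperitoneal tamoxifen in corn oil, given at 1 month of age on 3 days (1.5 mg per 10 g of mouse), for the libraries of both genotypes. Recombination depends on a CreER driven by Gli1, a marker of incisor mesenchymal stem cells. Which cell types recombined was not measured here. Cells outside the lineage of those with active CreER keep Arid1a, and the RNA comes from whole tissue. Every cKO library carries the CreER, and no Cre is listed for control libraries. Effects of the CreER and of Arid1a loss therefore cannot be told apart in this design. Arid1a encodes a DNA-binding part of SWI/SNF, a complex that moves nucleosomes, and the design asks how its loss alters homeostasis of the incisor.

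Integrins are receptors made of an alpha and a beta chain that hold cells to the matrix around them and signal through adaptors and kinases inside the cell. Laminins are trimers of an alpha, a beta and a gamma chain that build basement membranes, and each cell type makes its own set. In the incisor a basement membrane separates dental epithelium, which makes enamel, from dental mesenchyme, which makes dentin and pulp, and further basement membranes lie around vessels and nerves.

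The 6 libraries held 27300932 to 37908478 estimated counts, and levels are given as CPM, counts scaled to a common normalized library size. The top gene was CT010467.1 in cKO replicates 2 and 3, with 7.47% and 4.12% of counts. In the other libraries another gene was on top, with 1.37 to 2.68%. Arid1a was at 222, 249 and 223 CPM in control replicates 1, 2 and 3 and at 136, 139 and 145 CPM in cKO replicates 1, 2 and 3, so it was lower in every cKO library but far from absent. Its mean fell from 231 ± 15.2 CPM to 140.2 ± 4.57 CPM (SD, n = 3), with an edgeR adjusted p of 0.00802. Gli1, the gene whose promoter drives the CreER, fell from 153 ± 14.1 to 107 ± 0.559 CPM (log2 fold change -0.52, edgeR adjusted p = 0.0162). The part of the CreER allele in this value was not tested. The summed level of 4 Y-linked genes was 195 to 235 CPM in 4 libraries and at most 0.11 CPM in control replicate 3 and cKO replicate 1, where Xist was at 3894 and 2807 CPM. Each genotype therefore holds libraries of both sexes, with 1 female-pattern library each. Nothing in the labels says that libraries of a genotype came from separate animals or whether animals were pooled, so p-values measure the spread between these libraries, part of which may be technical. All 10 dental mesenchyme markers had a mean above 1 CPM, as had all but 3 of 19 dental epithelium markers.

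Of the 36 chains, 3 were lower in cKO libraries and 0 were higher by edgeR's quasi-likelihood test with Benjamini-Hochberg adjustment over 19613 genes at 0.05. The same test called 3.96% of all genes tested, 2.46% lower and 1.5% higher. All 3 chains are of mesenchymal or vascular type: Lama4, Lama2 and Itga1. At an unadjusted p under 0.05, 2 further chains were higher (Itgb4 and Itga11) and 4 were lower (Itga4, Itga8, Itga10 and Lamc3). DESeq2 called 6 chains lower and 2 higher, beside 6.01% and 4.47% of all genes. In 7 chains each cKO library was below each control library, and in 2 chains each was above. Over all genes tested 29.1% did not overlap, 15.3% with cKO libraries below and 13.8% above. The median log2 fold change (cKO minus control) was 0.04 over the 36 chains and 0.00 over all genes tested.

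**Figure D1:**
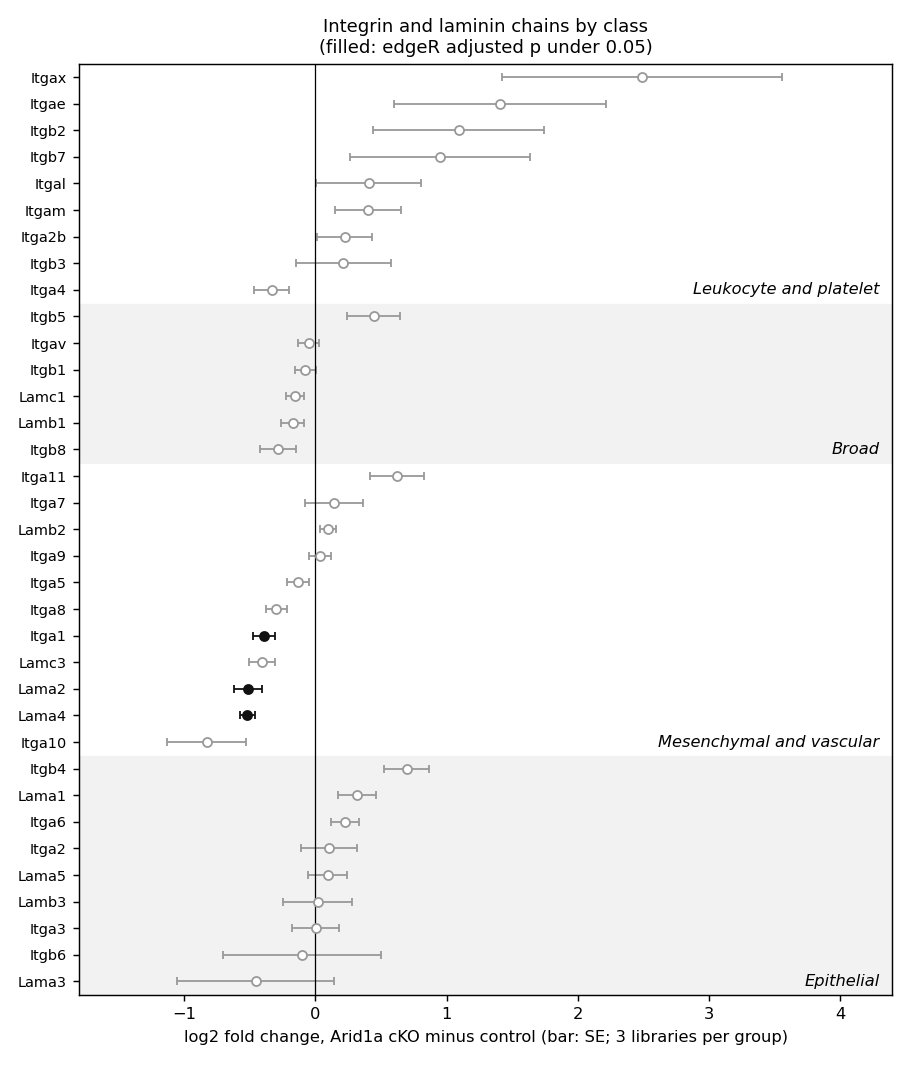
Log2 fold change, cKO minus control, of 35 of the 36 chains (points) with its standard error (bars), grouped into 4 classes and ordered by size within a class, from 3 libraries per genotype. Filled points mark the 3 chains with an edgeR adjusted p under 0.05, Lama4, Lama2 and Itga1, all in the mesenchymal and vascular class and all below 0.

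The classes lay apart in their medians. The 11 mesenchymal and vascular chains had a median log2 fold change of -0.30, and 7 of them had a negative value. The 10 epithelial chains had a median of 0.07, with 8 positive values. The 6 broadly expressed chains had a median of -0.12, with 5 negative values. The 9 leukocyte and platelet chains had a median of 0.41, with 8 positive values, and 8 of the 9 were highest in cKO replicate 1. No chain of the epithelial, broad or leukocyte and platelet classes passed the edgeR test. Differences between the class medians were not tested, and the classes were chosen with earlier results of these data known.

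To set levels of different genes side by side, they were divided by kilobases of annotated exon. The divisor is the union of all annotated exons of a gene, such as 18.6 kb for Itga1 and 4.08 kb for Itgb1. Ranks and shares on this scale therefore depend on the annotation as well as on the counts. Itgb1 was the most abundant chain in control libraries at 188 ± 4.63 CPM per kb. Itgb1 is the shared beta partner of the collagen, laminin and fibronectin receptors. Lamc1, the gamma chain of most laminins, followed at 51 ± 1.01 CPM per kb, and Itgb5, a beta partner of Itgav that binds vitronectin, at 35.3 ± 8.08 CPM per kb. The ranges of Itgb1, Lamc1 and Itgb5 in the control libraries did not overlap. Next in order were Lamb2 at 31.4 ± 0.876, Lamb1 at 30.6 ± 2.72, Itga4 at 19.1 ± 2.01 and Itgav at 17.6 ± 0.359 CPM per kb. Lamb1 and Itga4 had separate control ranges, while those of Lamb2 and Lamb1, and of Itga4 and Itgav, overlapped. The lowest chains were Itgax at 0.335 ± 0.0784 and Itgae at 0.0934 ± 0.0283 CPM per kb. In 30 of the 35 pairs of neighbours in this order the control ranges overlapped, so most neighbouring ranks cannot be separated. In cKO libraries the first 3 ranks were held by Itgb1, Itgb5 and Lamc1, with the mean of Itgb5 ahead of that of Lamc1. In cKO replicate 2 Itgb5 was below Lamc1 (39.1 and 47.4 CPM per kb), so the order of these 2 cannot be separated. Itga11 stood at rank 19 in control and 11 in cKO libraries, and Itgb4 at 9 and 6. Itga10 stood at rank 14 and 22, Lama2 at 16 and 21, and Lama4 at 10 and 12.

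Lama4 is the laminin alpha chain of vascular and mesenchymal basement membranes (ENSMUSG00000019846.11, chr10:38965515-39110188, plus strand, mm10, protein coding). Its level was 170.1, 174 and 176 CPM in control replicates 1 to 3 and at 127, 119 and 117 CPM in cKO replicates 1 to 3. The groups did not overlap, and the gap between them was wider than the range within either. The mean fell from 173 ± 2.99 to 121 ± 5.47 CPM (SD, n = 3), a log2 fold change of -0.52 (SE 0.0576), or 1.43-fold lower, with an edgeR adjusted p of 0.00948. Lama4 passed under each of the 17 alternative settings, including each library left out in turn, with log2 fold changes from -0.56 to -0.48. In bulk RNA, here and for every chain, fewer cells of a type and less RNA per cell cannot be told apart.

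Lama2 is the laminin alpha chain of the basement membranes around muscle fibres and Schwann cells (ENSMUSG00000019899.16, chr10:26980036-27619758, minus strand, protein coding). It was at 116, 143 and 122 CPM in control replicates 1 to 3 and at 78.2, 96.0 and 92.1 CPM in cKO replicates 1 to 3. No cKO library reached the lowest control library. The mean fell from 127 ± 14.0 to 88.8 ± 9.39 CPM (SD, n = 3), a log2 fold change of -0.51 (SE 0.104), with an edgeR adjusted p of 0.0397. This call rested on all libraries: with any 1 of the 6 left out, the adjusted p was 0.058 to 0.113, at log2 fold changes from -0.58 to -0.41.

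Lamc3, a less common laminin gamma chain, stood at 61.4, 62.5 and 58.4 CPM in control replicates and 38.6, 50.1 and 48.5 CPM in cKO replicates. Its groups did not overlap either, but the edgeR adjusted p was 0.0639 (log2 fold change -0.41, SE 0.1). It passed with a term for Y-linked expression (adjusted p = 0.0225) and with DESeq2 (adjusted p = 0.00894). Lamb2, the beta chain that joins Lama2 or Lama4 in muscle, nerve and vessel laminins, was at 191 ± 5.33 CPM in control and 204 ± 9.06 CPM in cKO libraries (log2 fold change 0.09, adjusted p = 0.405). The groups overlapped.

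The broadly expressed laminin partners did not pass. Lamc1 was at 413, 429.7 and 422 CPM in control replicates and 382, 392 and 362 CPM in cKO replicates. These groups did not overlap, and the log2 fold change of -0.16 (SE 0.0684) did not pass (edgeR adjusted p = 0.237). Lamb1 was at 304 ± 27 CPM in control and 269 ± 17.5 CPM in cKO libraries (log2 fold change -0.17, adjusted p = 0.296). Within each library, the log2 ratio of Lama4 to Lamc1, per kilobase, was -1.83 ± 0.021 in control and -2.19 ± 0.067 in cKO libraries (SD, n = 3). That of Lama2 to Lamc1 was -2.72 ± 0.13 and -3.08 ± 0.17. Neither ratio overlapped between genotypes, so both alpha chains were lower relative to their gamma partner as well as in level. The ratios reuse the levels of Lama4 and Lama2 given above and are no separate support.

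The make-up of the 5 laminin alpha chains differed accordingly. Lama4 held 33.8 ± 3.37% of the summed level per kilobase in control and 26.3 ± 1.71% in cKO libraries (SD, n = 3). Lama2 held 18.2 ± 1.66% and 14.3 ± 1.72%. Lama1, the alpha chain of early epithelial basement membranes, held 23.2 ± 2.93% and 32.5 ± 4.01%. Per kilobase it was the most abundant alpha chain in each cKO library, though in cKO replicate 1 it was level with Lama4 (27.9% and 27.7%). In CPM, not divided by length, Lama1 was below Lama4 in cKO replicate 1 (103 and 127 CPM). In the control group Lama4 was the most abundant in each library. Lama5, the alpha chain of most mature epithelial and vascular basement membranes, held 16.8 ± 0.96% and 20.2 ± 2.22%. Shares sum to 100% within a library, so a lower share of some chains raises that of the others.

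**Figure D2:**
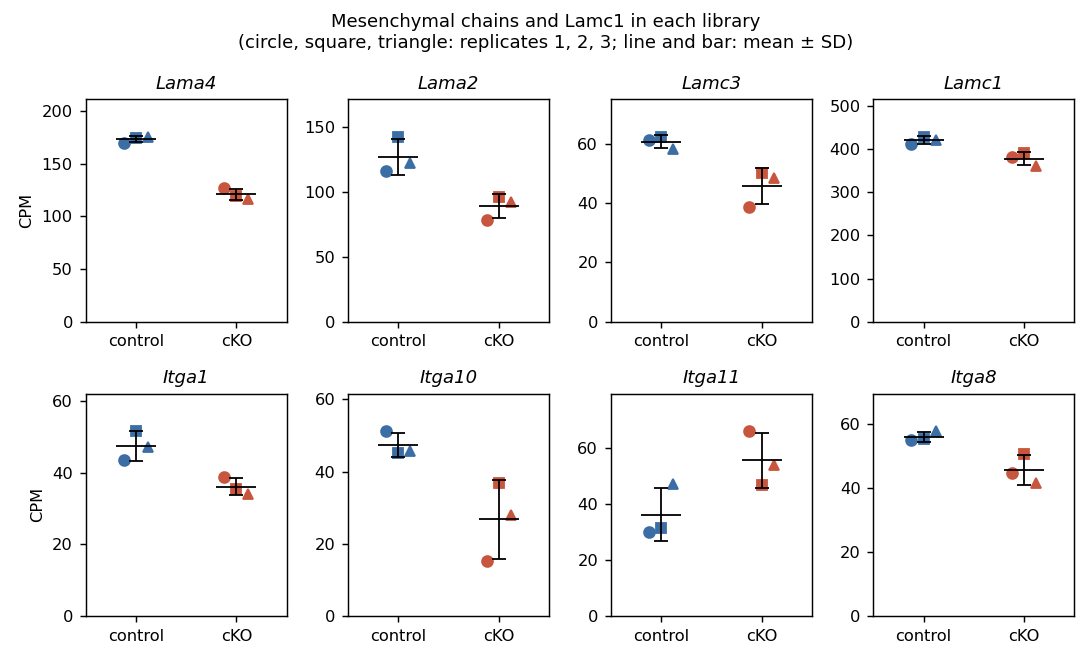
CPM of 4 laminin chains (top) and 4 integrin alpha chains (bottom) in each of the 6 libraries, with the mean and SD of each genotype (n = 3). Lama4, at 170.1 to 176 CPM in control and 117 to 127 CPM in cKO libraries, has no overlap between genotypes, and Itga11 has higher values in cKO libraries with 1 overlap.

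**Figure D3:**
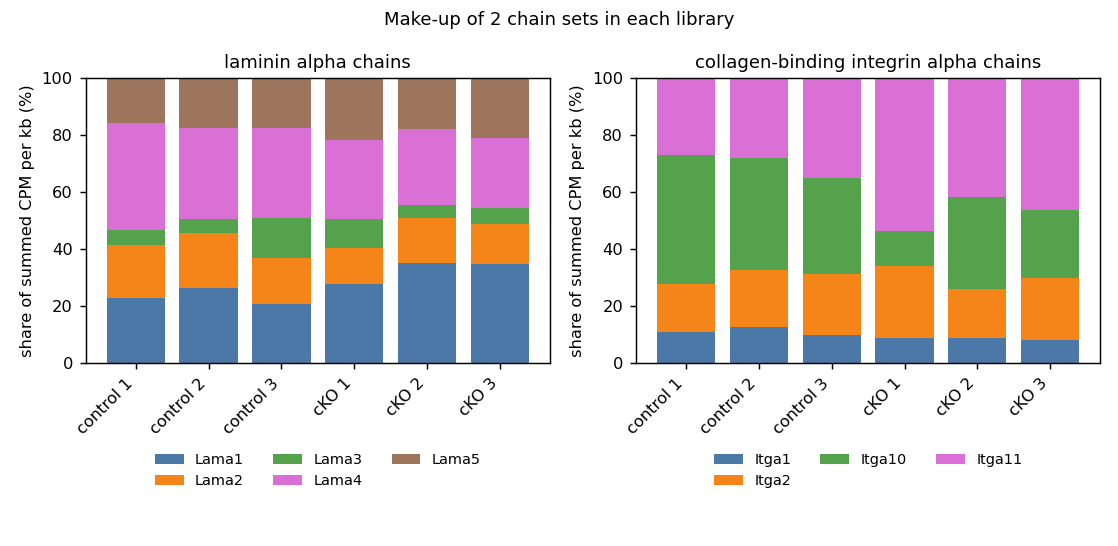
Share of each chain in the summed CPM per kb of the 5 laminin alpha chains (left) and the 4 collagen-binding integrin alpha chains (right), as stacked bars for each library. The Lama4 band narrows from 31.7 to 37.7% in control to 24.4 to 27.7% in cKO libraries, and the Itga11 band widens from 26.9 to 35.1% to 41.6 to 53.8%.

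Itga1 and Itga11 are both alpha chains of collagen receptors that pair with Itgb1, and they lay on opposite sides of 0. The 250 bases before the start of each gene, and of Itgb1, are shown because these are the partner chains with the contrasting values. They come from RefSeq (GRCm38.p6) through a promoter table that is not complete. Of the 36 chains 23 were matched in it. The sequences run 5′ to 3′ on the strand of the gene. Capitals mark a match to a searched motif.
Itga1, chr13:115101965-115102214, minus strand: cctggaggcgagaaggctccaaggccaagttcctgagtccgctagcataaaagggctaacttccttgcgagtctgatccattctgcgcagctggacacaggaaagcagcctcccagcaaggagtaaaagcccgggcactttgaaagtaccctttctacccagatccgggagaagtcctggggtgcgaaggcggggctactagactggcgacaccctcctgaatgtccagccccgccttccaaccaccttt
Itga11, chr9:62677605-62677854, plus strand: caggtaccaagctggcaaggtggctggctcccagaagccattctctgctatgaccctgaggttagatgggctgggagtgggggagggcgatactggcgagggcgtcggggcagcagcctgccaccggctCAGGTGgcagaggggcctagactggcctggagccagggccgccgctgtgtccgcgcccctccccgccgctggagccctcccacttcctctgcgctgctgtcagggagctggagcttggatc
Itgb1, chr8:128685404-128685653, plus strand: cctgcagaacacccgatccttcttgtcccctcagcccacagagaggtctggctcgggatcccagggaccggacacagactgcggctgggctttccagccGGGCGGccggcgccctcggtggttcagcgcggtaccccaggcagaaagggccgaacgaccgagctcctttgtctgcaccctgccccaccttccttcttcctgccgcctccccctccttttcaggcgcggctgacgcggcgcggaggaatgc
The motifs, searched on both strands, were the GC box GGGCGG, the TATA box TATAAA, the AP-1 site TGAGTCA, the E-box CAGGTG and the GLI site GACCACCCA. The Itga1 window held none of them. The Itga11 window held 1 E-box, 121 bases before the RefSeq start, which lies 29 bases inside the deposited gene, and the Itgb1 window held 1 GC box, 151 bases before the start. Of the 23 matched chains, 8 held a GC box in the window nearest to the deposited gene start, 6 the E-box, 1 the AP-1 site (Itgax), and 0 the TATA box or the GLI site. The nearest window is not always at that start. Its RefSeq start lay 105002 bases away for Itga9, which is among the 6 with the E-box, 94295 for Lamb3 and 2816 for Lama2. In 32851 RefSeq windows of the same length, 32.7% held a GC box, 17.2% the E-box, 4.46% the AP-1 site, 12.4% the TATA box and 0.225% the GLI site. A match describes these letters and is not shown to be bound.

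Itga1 (ENSMUSG00000042284.10), on chr13:114953096-115101964 (minus strand, protein coding), binds collagen IV and fibrillar collagens. It was at 43.6, 51.8 and 47.3 CPM in control replicates 1 to 3 and at 38.9, 35.5 and 34.2 CPM in cKO replicates 1 to 3. The groups did not overlap, though the lowest control library and the highest cKO library were close. The mean fell from 47.5 ± 4.10 to 36.2 ± 2.43 CPM (SD, n = 3), a log2 fold change of -0.39 (SE 0.0841), with an edgeR adjusted p of 0.0466. Without cKO replicate 1 the adjusted p was 0.0453, and with any other library left out it was 0.0792 to 0.144. The intron-nested gene Pelo overlaps Itga1 on the same strand, and was at 14.5 ± 1.64 and 15.8 ± 3.35 CPM (log2 fold change 0.12, adjusted p = 0.702), and the sources used here do not give how shared reads were assigned.

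Itga11, the fibrillar collagen receptor chain of fibroblasts (chr9:62677826-62783982, plus strand), was at 30.1, 31.6 and 47.1 CPM in control replicates 1 to 3. In cKO replicates 1 to 3 it was at 66.3, 46.9 and 53.9 CPM. Control replicate 3 and cKO replicate 2 had near-equal values, and the other libraries were apart. The log2 fold change of 0.62 (SE 0.206) did not pass (edgeR adjusted p = 0.147). It passed with a term for Y-linked expression (0.64, adjusted p = 0.0119) and in the 4 libraries with Y-linked expression alone (0.72, adjusted p = 0.0465). It also passed with DESeq2 (adjusted p = 0.0141) and with a covariate for dental epithelium markers (0.45, adjusted p = 0.0248). Per kilobase, the log2 ratio of Itga11 to Itga1 within a library was 1.44 ± 0.37 in control libraries (SD, n = 3). In cKO libraries it was 2.47 ± 0.19, with no overlap. These 2 chains were set together for their contrasting values, so this lack of overlap is no separate support. How often ratios of other gene pairs overlap was not tested.

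Itga10, the collagen receptor chain of cartilage and other skeletal tissue, was at 51.3, 45.2 and 45.8 CPM in control replicates and at 15.3, 36.9 and 28.0 CPM in cKO replicates. Every cKO library was lower, and cKO replicate 1 was lowest by far. The log2 fold change of -0.83 (SE 0.301) did not pass (edgeR adjusted p = 0.185). Without cKO replicate 1 it was -0.55. Gm42957, a protein-coding gene model on the same strand, overlaps Itga10 and was at 2.75 ± 0.802 and 1.52 ± 0.438 CPM. Itga2, the collagen receptor chain of epithelium and platelets, was at 32.7 ± 6.96 and 35.2 ± 8.06 CPM. Among the 4 collagen-binding alpha chains, Itga10 held 39.5 ± 5.84% of the level per kilobase in control and 22.8 ± 10.1% in cKO libraries. Itga11 held 29.9 ± 4.46% and 47.2 ± 6.14%, and Itga1 held 11.0 ± 1.45% and 8.50 ± 0.345%.

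The remaining mesenchymal and vascular chains did not pass. Itga8, a receptor chain for nephronectin in smooth muscle and mesenchyme, was at 55.1, 55.3 and 58.0 CPM in control and 44.7, 50.9 and 41.5 CPM in cKO replicates. Its groups did not overlap (log2 fold change -0.30, SE 0.0821, edgeR adjusted p = 0.087). Without cKO replicate 2 it passed, at -0.38 and an adjusted p of 0.0494. Itga5, the fibronectin receptor chain, was at 45.8 ± 1.49 and 41.8 ± 4.17 CPM, and Itga9, a receptor chain for tenascin C, at 45.3 ± 1.58 and 46.4 ± 4.68 CPM. Itga7, the laminin receptor chain of muscle, was at 4.52 ± 1.16 and 4.97 ± 0.726 CPM. Mettl7b overlaps it on the opposite strand.

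Of 10 dental mesenchyme markers, 3 were lower (Msx2, Pdgfrb and Lum), 0 were higher and 7 did not pass, with a median log2 fold change of -0.37. Among the 7, Twist1 had a log2 fold change of 0.0012 and Pdgfra of -0.078. That is 30% called, beside 3.96% of all genes tested. The genotypes did not overlap in 60% of the 10, 6 with cKO libraries below and 0 above, beside 29.1% of all genes. The summed level of the 10 was 5560 to 6784 CPM in control and 4045 to 4575 CPM in cKO libraries. Of 7 endothelial markers 0 passed, at a median of -0.04 and sums of 351 to 390.2 and 313 to 411 CPM. The genotypes did not overlap in 14.3% of the endothelial markers, 1 with cKO libraries below and 0 above. Of 7 mural cell markers, Myh11 was higher and Notch3 lower (28.6% called), with sums of 952 to 1015 and 812 to 1039 CPM. The genotypes did not overlap in 85.7% of the mural markers, 3 with cKO libraries below and 3 above. All 7 Schwann cell markers had positive values and Egr2 passed (14.3% called), with sums of 119 to 220.4 and 241 to 313 CPM. In 71.4% of the Schwann cell markers the genotypes did not overlap, 5 with cKO libraries above and 0 below. Skeletal muscle markers, of which 6 were in the table, summed to 2.36 to 28.0 CPM in control and 2.19 to 3.36 CPM in cKO libraries. Of the 4 tested 0 passed, and 25% did not overlap, 1 with cKO libraries below and 0 above. The part of the amount of mesenchyme in the levels of Lama4, Lama2 and Itga1 was not tested.

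Itgb1 itself was at 789, 756 and 757 CPM in control replicates 1 to 3 and at 764, 687 and 734 CPM in cKO replicates 1 to 3. The groups overlapped, and the log2 fold change of -0.08 (SE 0.0786) did not pass (edgeR adjusted p = 0.623). Itgav, the alpha chain of receptors for vitronectin and latent TGF-beta, was at 189 ± 3.86 and 182 ± 18.4 CPM (adjusted p = 0.759). Its partner Itgb5 was at 93.8, 132 and 150.1 CPM in control and 198, 139 and 174 CPM in cKO replicates, with 1 overlap (log2 fold change 0.44, adjusted p = 0.263). Its partner Itgb8, which binds latent TGF-beta, was at 16.5 ± 2.58 and 13.6 ± 1.54 CPM (adjusted p = 0.275). Of the summed beta chain level per kilobase, Itgb1 held 76.9 ± 3.79% in control and 68.9 ± 3.72% in cKO libraries, and Itgb5 held 14.4 ± 2.95% and 18.3 ± 1.30%.

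Among the epithelial chains, Itgb4 had the largest difference. Itgb4 is the beta chain of the hemidesmosome receptor, which anchors basal epithelial cells to laminin (chr11:115974709-116008412, plus strand, protein coding). It was at 87.0, 111 and 113 CPM in control replicates 1 to 3 and at 185, 129 and 189.6 CPM in cKO replicates 1 to 3. Each cKO library was above each control library. The log2 fold change of 0.70 (SE 0.172), or 1.62-fold, did not pass (edgeR adjusted p = 0.0767). It passed without cKO replicate 2 (0.86, adjusted p = 0.0289) and with DESeq2 (adjusted p = 0.000489), and without any other library the adjusted p was 0.145 to 0.194.

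Itga6, the alpha chain that joins Itgb4 in the hemidesmosome and Itgb1 elsewhere, was at 133, 140.3 and 159 CPM in control and at 178, 145 and 182 CPM in cKO replicates. These groups overlapped (log2 fold change 0.22, SE 0.107, adjusted p = 0.268). The log2 ratio of Itgb4 to Itga6 per kilobase was -0.12 ± 0.13 in control and 0.34 ± 0.13 in cKO libraries (SD, n = 3). It did not overlap between genotypes, but it reuses the Itgb4 levels given above and is no separate support. Of the laminin-binding alpha chains, Itga6 held 72.7 ± 1.99% and 75.6 ± 1.69%. Itga3, the alpha chain of the epithelial laminin receptor with Itgb1, was at 31.1 ± 4.60 and 31.2 ± 6.57 CPM.

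Lama3 and Lamb3 encode chains of the laminin that hemidesmosomes bind, which is also made by enamel-forming ameloblasts. Their levels differed more between libraries than between genotypes. Lama3 was at 20.2, 24 and 69.6 CPM in control replicates 1 to 3 and at 41.1, 17.6 and 24 CPM in cKO replicates 1 to 3. Lamb3 was at 39.5, 46.2 and 70.5 CPM, and 63.4, 39.7 and 55.0 CPM. In both chains control replicate 3 was highest, followed by cKO replicate 1 and, narrowly for Lama3, cKO replicate 3. The first 2 are the libraries without Y-linked expression.

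Lama3 had a log2 fold change of -0.45 with an SE of 0.6, which turned to 0.33 without control replicate 3. Lamb3 had 0.02 with an SE of 0.262, and neither passed. Of 7 enamel genes among the dental epithelium markers, 5 were highest in control replicate 3 (Enam, Amelx, Ambn, Mmp20 and Amtn), but they did not share 1 order of libraries. Enam, an enamel matrix gene, had the order of Lamb3. It was at 14.8, 64.9 and 824 CPM in control and 269, 19.6 and 127 CPM in cKO replicates. Amelx, the main enamel matrix gene, had the order of Lama3 and Itgb6. Ambn, Mmp20 and Amtn had neither order, and Odam, at under 1 CPM, was highest in cKO replicate 1. Klk4, a protease of the enamel matrix, was at 0.507 to 1.64 CPM in control and 3.20 to 3.92 CPM in cKO libraries, with no overlap (adjusted p = 0.0587). Itgb6, the epithelial beta partner of Itgav, was at 4.65, 6.09 and 14.4 CPM in control and 12.9, 3.60 and 6.86 CPM in cKO replicates (adjusted p = 0.946). The part of the amount of enamel epithelium in these levels was not tested. With that marker covariate, the mean log2 level of the dental epithelium markers, Lama3 passed as lower (log2 fold change -0.81, adjusted p = 0.0174). Lamb3 overlaps Hsd11b1 and G0s2 on the opposite strand.

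**Figure D4:**
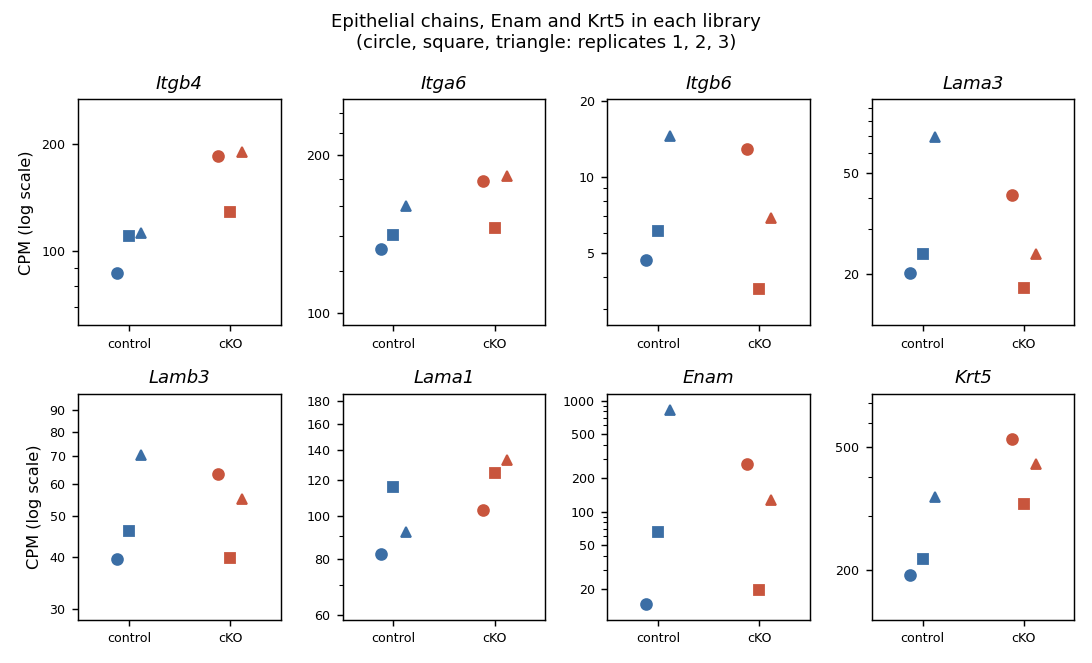
CPM, on log axes, of 6 epithelial chains, the enamel gene Enam and the basal keratin Krt5 in each of the 6 libraries (no error bars; symbols mark the replicate). Lamb3 and Enam, which is 1 of 7 enamel genes and was chosen for this order, rank the libraries alike with control replicate 3 on top, while Itgb4 is higher in each cKO library.

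The laminin alpha chains of other epithelial basement membranes did not pass. Lama1 was at 82.2, 116 and 91.7 CPM in control and 103, 124 and 133 CPM in cKO replicates, with overlap (log2 fold change 0.32, adjusted p = 0.264). Lama5 was at 82.3 ± 13.4 and 87.7 ± 12.2 CPM. Markers of dental epithelium are given beside these chains: 3 of 17 tested were higher (Epcam, Cldn4 and Krt8) and 0 lower, at a median log2 fold change of 0.40. That is 17.6% called, beside 3.96% of all genes tested. Of the 17, 12 had positive and 5 had negative log2 fold changes. The negative ones were Trp63 (-0.20) and the enamel genes Amelx (-1.31), Enam (-1.12), Mmp20 (-0.50) and Amtn (-0.50). Cldn4 was low, at 0.435 to 0.876 CPM in control and 1.57 to 1.94 CPM in cKO libraries. The genotypes did not overlap in 29.4% of the 17, 5 with cKO libraries above and 0 below, beside 29.1% of all genes. The summed level of the 19 markers was 1004 to 4204 CPM in control and 1043 to 2270 CPM in cKO libraries. Among 6 hemidesmosome partners 0 passed, with a median of 0.05, and the genotypes overlapped in all 6. The smallest p-values were those of the basal keratin Krt5 (log2 fold change 0.79, adjusted p = 0.165) and the linker Dst (-0.28, adjusted p = 0.183).

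Of the 9 leukocyte and platelet chains, 8 had their highest value in cKO replicate 1, and 0 passed. Itgax, the alpha chain of dendritic cells and some macrophages, was at 1.69, 1.2 and 1.94 CPM in control replicates 1 to 3. In cKO replicates 1 to 3 it was at 22.4, 2.46 and 2.11 CPM. The groups did not overlap, but cKO replicates 2 and 3 exceeded the highest control library by little. The log2 fold change was 2.49 (SE 1.07, edgeR adjusted p = 0.253), and without cKO replicate 1 it was 0.51 (adjusted p = 0.349). With the mean log2 level of the leukocyte markers as a covariate, added after seeing the data, it was 0.04.

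Itgb2, the shared beta chain of leukocyte integrins, was at 8.73, 3.95 and 7.27 CPM in control and 27.9, 7.66 and 6.89 CPM in cKO replicates. Its log2 fold change of 1.09 (adjusted p = 0.386) was 0.13 without cKO replicate 1. Itgb7, the beta chain of lymphocyte homing receptors, was at 2.68, 1.78 and 2.81 CPM, and 9.86, 1.71 and 2.44 CPM. Itgae, the partner of Itgb7 on lymphocytes within epithelia, was at 0.446, 0.290 and 0.548 CPM, and 2.55, 0.433 and 0.396 CPM. The log2 fold change of Itgae was 1.41 (adjusted p = 0.358), and -0.044 without cKO replicate 1. Haspin overlaps Itgae on the opposite strand. In all 3 chains the other cKO libraries lay within or near the control range.

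Itgal, the alpha chain of lymphocytes, was at 10.5, 5.76 and 10.1 CPM in control and 18.1, 9.96 and 6.86 CPM in cKO replicates. Itgam, that of macrophages and neutrophils, was at 18.2, 11.3 and 17.5 CPM, and 26.3, 20.7 and 15.1 CPM. Both overlapped between genotypes, and the gene model Gm49368 overlaps Itgam on the same strand. The platelet chains Itga2b and Itgb3 were at 2.12 ± 0.427 and 2.47 ± 0.18 CPM, and at 5.63 ± 1.72 and 6.50 ± 2.95 CPM. Of 13 leukocyte markers, 12 were highest in cKO replicate 1, 10 were tested and 0 passed, with a median log2 fold change of 0.50. Their summed level was 218 to 308 CPM in control libraries. It was 470.2, 321 and 279 CPM in cKO replicates 1, 2 and 3, and 4 of the 13 had a mean under 1 CPM. Of the 10 tested markers, 20% did not overlap between genotypes, 1 with cKO libraries above and 1 below, beside 29.1% of all genes. Platelet markers summed to 14.4 to 18.1 and 18 to 22.6 CPM, and osteoclast markers to 92.5 to 115 and 79.2 to 111 CPM, with 0 passing. In both lists the genotypes overlapped in every tested marker. The part of leukocyte content in the values of cKO replicate 1 was not tested.

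**Figure D5:**
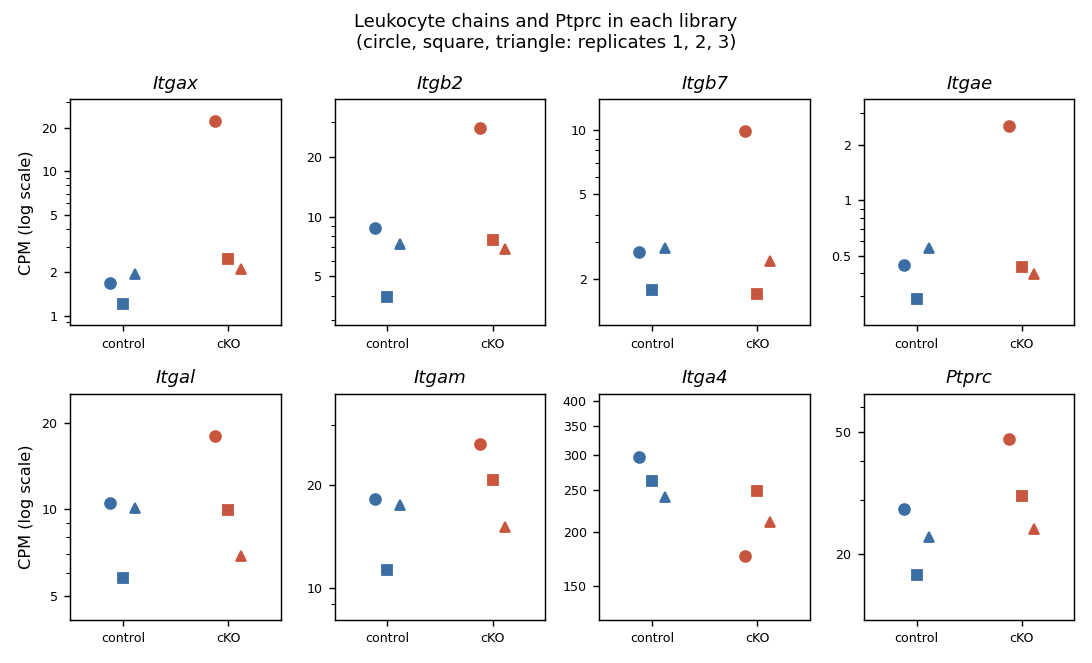
CPM, on log axes, of 7 leukocyte chains and the leukocyte gene Ptprc in each of the 6 libraries (no error bars; symbols mark the replicate). In every panel but that of Itga4, cKO replicate 1 is the highest library, and for Itgax it stands at 22.4 CPM against 1.2 to 2.46 CPM in the other 5.

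Itga4 stood apart from the leukocyte class. It pairs with Itgb1 or Itgb7 and binds Vcam1 and fibronectin, and it was at 297, 261 and 241 CPM in control and 176, 248 and 211 CPM in cKO replicates. It was the highest of the 9 chains in every library, and cKO replicate 1, where the leukocyte markers were highest, held its lowest value. Ptprc, the pan-leukocyte gene, was at 22.6 ± 5.42 and 34.1 ± 12 CPM. The log2 fold change of Itga4, -0.33 (SE 0.134), did not pass (edgeR adjusted p = 0.206). Cerkl overlaps it on the opposite strand and was at 1.91 ± 0.437 and 1.26 ± 0.239 CPM.

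Of 29 integrin adaptors and kinases, which act on the inner side of these chains, 3 were lower and 0 higher, with a median log2 fold change of -0.01. That is 10.3% called, beside 3.96% of all genes tested. The genotypes did not overlap in 51.7% of the 29, 11 with cKO libraries below and 4 above, beside 29.1% of all genes. Lims1, an adaptor of the integrin-linked kinase complex, fell from 149 ± 10.6 to 108 ± 0.986 CPM (log2 fold change -0.47, edgeR adjusted p = 0.0152). Rap1a, a small GTPase that activates integrins, fell from 51.4 ± 1.84 to 38.4 ± 1.47 CPM (-0.42, adjusted p = 0.0163). Bcar1, a scaffold phosphorylated by adhesion kinases, fell from 81.1 ± 1.10 to 64.1 ± 1.60 CPM (-0.34, adjusted p = 0.0186). Without cKO replicate 3, 0 of the 29 passed, and without any 1 control library 1 passed.

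Of 15 basement membrane partners, Hspg2 was lower and 0 were higher, with a median of -0.11. That is 6.67% called, beside 3.96% of all genes tested. The genotypes did not overlap in 20% of the 15, 3 with cKO libraries below and 0 above, beside 29.1% of all genes. Hspg2 encodes perlecan, a proteoglycan that joins laminin to collagen IV. It was at 872, 804 and 931 CPM in control and 529.99, 582 and 614 CPM in cKO replicates, with no overlap. Its log2 fold change was -0.60 (SE 0.0938, edgeR adjusted p = 0.0199). Of 22 tested ligands of integrins other than laminins, Tgfbi was lower and 0 were higher, with a median of 0.02. That is 4.55% called, so both lists, with 1 gene called in each, lay near the share over all genes. The genotypes did not overlap in 18.2% of the 22, 4 with cKO libraries below and 0 above. Tgfbi is a secreted matrix protein that integrins bind, and it fell from 1067 ± 92.8 to 627 ± 93.5 CPM (log2 fold change -0.77, adjusted p = 0.0211). The Hspg2 call held without control replicate 2 or cKO replicate 1 and ended without any other library (adjusted p = 0.0548 to 0.0677). The Tgfbi call held without cKO replicate 1 or 2 and ended without any other library (adjusted p = 0.0509 to 0.0822).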

How the data were processed

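Per the labels' protocols, RNA from the proximal incisor was sequenced as single-end reads of 75 cycles. The submitters' processing notes name STAR 2.6.1d, Partek and the build mm10. Annotation release, library kit and strand setting: not given in the sources used here. Estimated counts for 25703 genes were deposited by the authors (54.0 to 57.6% of a library's values lie within 0.01 of a whole number) together with normalized signal values for 21456 genes, used in 1 alternative. Replicate numbers follow accession order and name libraries only.

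Estimated counts were rounded, genes were kept with filterByExpr (minimum count 10), and genotypes were compared with edgeR 4.0.16 in R 4.3.3 (TMM, robust quasi-likelihood F test, two-sided, no covariate), with Benjamini-Hochberg adjustment over all 19613 genes and a threshold of 0.05. The SE of a log2 fold change was derived from its size and F. The code was tested on data simulated from these libraries, 3 against 3. It recovered 48% of 1.5-fold and 84% of 2-fold changes, and 21 of 185 calls were genes that had not been changed. With no change simulated, 0 of 19289 genes were called. The common biological coefficient of variation was 15.8%, and at 27300932 to 37908478 counts per library the spread between libraries limits precision for all but low genes. Every pair of libraries differed beyond sampling noise (chi-square per degree of freedom at least 29.3). Levels per kilobase divide CPM by the union of GENCODE M21 exons. Deposited stops lie 1 base past the annotated ends and were printed less 1.

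The chains, their 4 classes and the lists of adaptors, basement membrane partners, hemidesmosome partners, ligands and cell type markers were chosen with earlier results of these data known. A result for 1 chain is not reported here, the other chains are named with a level, chains that passed and their partners in full, and of each list the genes that passed or, with none, the 2 with the smallest p. Gp6, Myod1, Madcam1 and Fgb were not analysed here. Alternatives were RLE and upper quartile normalization, DESeq2 1.42.0, limma 3.58.1 (voom, and on the normalized table with a pseudocount of 1), no filter, a filter of 1 CPM, each library left out, and a dental epithelium score as a covariate. A leukocyte score, a term for Y-linked expression (Ddx3y, Eif2s3y, Kdm5d and Uty summed above 10 CPM) and the 4 libraries with that expression alone were added after seeing the data.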

Additional observations from a re-analysis of the deposited data

How the results depend on the processing

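With 3 libraries per genotype, calls depend on the settings, and the cause of a change was not tested. Over all genes 777 passed, against 1905 with DESeq2, 160 to 532 with a library left out, 517 with the dental epithelium score, 142 with the leukocyte score, 1272 with the term for Y-linked expression and 177 in the 4 libraries with it. Lama4 was the chain that passed in all 17 alternatives, Lama2 passed in 6 and Itga1 in 5. The 3 lower chains, all mesenchymal or vascular, became 6 with DESeq2, 1 with upper quartile normalization, limma on the deposited normalized table, the leukocyte score or the 4 libraries, and 1 to 2 with a library left out. With the dental epithelium score 2 chains were lower, 1 mesenchymal (Lama4) and 1 epithelial (Lama3). Higher chains, 0 in the main comparison, were 2 with DESeq2 (1 epithelial, Itgb4, and 1 mesenchymal, Itga11), 0 to 1 with a library left out (epithelial, Itgb4), and 1 with the dental epithelium score, the term for Y-linked expression or the 4 libraries (mesenchymal, Itga11). The 3 lower adaptors and kinases became 7 with DESeq2, 0 with the leukocyte score, 1 in the 4 libraries and 0 to 3 with a library left out, and 1 was higher with DESeq2, a filter of 1 CPM, the dental epithelium score or the term for Y-linked expression. The lower basement membrane partner (1) became 3 with DESeq2, 2 with the term for Y-linked expression, 0 with the leukocyte score or in the 4 libraries, and 0 to 3 with a library left out. The lower integrin ligand (1) became 5 with DESeq2, 2 with no filter or a filter of 1 CPM, 3 with the term for Y-linked expression, 0 with the leukocyte score or in the 4 libraries, and 0 to 1 with a library left out, and 1 was higher with DESeq2. Among hemidesmosome partners 1 was higher with the dental epithelium score or the term for Y-linked expression. Log2 fold changes were recomputed for 35 chains, and 15 of them, 0 of which passed in the main comparison, turned sign under at least 1 alternative. With the leukocyte score these were Itgb2 (-0.22), Itgae (-0.40), Itga3 (-0.0063), Itga9 (-0.10), Itgal (-0.39), Itgam (-0.035), Itgav (0.033), Itgb3 (-0.21), Itgb7 (-0.42) and Lamb3 (-0.033). With the dental epithelium score they were Itga2 (-0.082), Itga3 (-0.13), Itgb3 (-0.016) and Lamb3 (-0.19). Itga3 was at -0.0067 with voom and -0.0030 with the term for Y-linked expression. In the 4 libraries Itga3 was at -0.024, Itga9 at -0.055, Itgb3 at -0.13 and Itgb7 at -0.10. With a library left out the range was lowest without cKO replicate 1 for Itgae (-0.044 to 1.81), Lama3 (-0.87 to 0.33), Itga2 (-0.074 to 0.28), Itga3 (-0.12 to 0.16), Itga9 (-0.042 to 0.12), Itgal (-0.064 to 0.69), Itgb3 (-0.23 to 0.43), Itgb6 (-0.69 to 0.55) and Itgb7 (-0.23 to 1.35), and without control replicate 1 for Itga7 (-0.052 to 0.28), Lama5 (-0.031 to 0.20) and Lamb3 (-0.14 to 0.31). Lama3 and Itgb6 were highest without control replicate 3. In every fit, also where an arm was left with 2 libraries, the spread was pooled over both genotypes. The labels' protocol mentions 3 pairs of libraries without naming their members, and a pairing could change the p-values. No paired analysis was possible because the titles of the 2 genotypes share fewer than 2 replicate numbers.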
